A study of Mus musculus with 17 samples.

Results

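The transcripts of 10 proteins of the stress granule were examined in mouse cortex: G3bp1, G3bp2, Caprin1, Usp10, Ubap2l, Tia1, Tial1, Pabpc1, Atxn2 and Atxn2l. They were chosen by symbol, and all 10 were found among the 55453 distinct gene symbols of a table of TPM values (the abundance of a transcript per 1000000 transcripts, after correction for length). RNA of bulk cortex came from 17 C57BL/6J males forming 6 groups, and the question was how cortical gene expression responds when Hnrnph2 is lost or carries a substitution found in patients. The product of Hnrnph2, an X-linked gene, binds RNA, and all mutants were hemizygous. At 8 weeks there were 3 knockout (KO) mice with 3 wild-type littermates (KO Control) and 3 R206W knockin mice with 3 wild-type littermates (R206W Control). At 3 weeks there were 3 P209L knockin mice and 2 wild-type littermates (P209L Control) analysed here. The KO line carried a frameshifting indel obtained while the knockin lines were made, and not a deletion of the gene.

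Stress granules are condensates of untranslated mRNA and protein that form in the cytoplasm when translation initiation is blocked, commonly through phosphorylation of eIF2alpha. G3BP1 and its paralog G3BP2 bind RNA and form the core of the network. CAPRIN1 and UBAP2L bind G3BP and favour assembly, whereas the deubiquitinase USP10 competes with CAPRIN1 for G3BP. TIA1 and its paralog TIAL1 are RNA-binding proteins with a prion-like region, PABPC1 coats the poly(A) tail of mRNA, and ataxin-2 and its paralog ataxin-2-like bind PABPC1. RNA levels do not report whether granules were present.

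The bases upstream of the start are given for G3bp2 and Ubap2l, the genes whose values did not overlap between wild-type mice of 3 and 8 weeks, and for G3bp1, the paralog of G3bp2. They come from RefSeq on GRCm38.p6, 5′ to 3′ on the strand of the gene. For each gene the RefSeq start nearest that of GENCODE M21 was used, and the bases end before both. G3bp2 has a further RefSeq start at chr5:92137725, upstream of its stretch. G3bp1 is at chr11:55469555-55469684 on the plus strand, G3bp2 at chr5:92083720-92083848 on the minus strand and Ubap2l at chr3:90052629-90052758 on the minus strand. Capitals mark GGGCGG (a GC box) or CACGTG (an E-box) on either strand.
G3bp1: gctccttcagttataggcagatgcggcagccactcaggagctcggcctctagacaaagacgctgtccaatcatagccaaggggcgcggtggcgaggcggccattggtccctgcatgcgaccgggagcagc
G3bp2: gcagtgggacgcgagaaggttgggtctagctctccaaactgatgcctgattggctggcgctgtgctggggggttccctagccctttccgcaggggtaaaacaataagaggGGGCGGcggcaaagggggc
Ubap2l: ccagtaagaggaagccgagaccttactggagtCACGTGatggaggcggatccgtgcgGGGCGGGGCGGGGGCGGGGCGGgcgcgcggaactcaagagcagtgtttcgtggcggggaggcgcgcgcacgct

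These stretches held 0 GC boxes in G3bp1, 1 in G3bp2 and 4 overlapping ones in Ubap2l, which also held 1 E-box. The motifs were picked after the sequences had been seen. In the full windows of 300 bases, from 250 before to 50 after the start, 9 of the 10 genes had an entry with 15 windows in all, the exception being Pabpc1. GGGCGG was in 10 of these 15 windows (66.7%), against 35.7% of 32851 windows of all genes. CACGTG was in 4 of 15 (26.7%) against 7.15%, and the letters TATAAA were in 2 of 15 (13.3%) against 13.6%. The median GC content of the 15 windows was 67.7%, and that of all windows was 52.7%. Windows of a gene can overlap, and a match of letters is not a site of binding.

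Several libraries stood apart. KO Control 1 had 20.1% of its TPM in mitochondrially encoded genes, against 10.7% to 15.4% in the other 16 mice, and its summed level of the 10 genes was 666 TPM, against 721 to 1070 TPM. It was the lowest of its group for 10 of 10 genes and the lowest of all mice for 5, so the KO and age comparisons are also given without it. P209L Control 2 had a summed level of 5 choroid plexus markers of 1776 TPM, against at most 27.9 TPM in any other mouse. The 6 skeletal muscle markers summed to 109 to 114 TPM in the P209L controls and to 44.3 to 60.9 TPM elsewhere. KO 3 had the highest summed astrocyte (1638 TPM), microglial (349 TPM) and leptomeningeal fibroblast (102 TPM) markers of all mice. It was the lowest of all mice for 1 of the 10 genes (Tia1, 76.4 TPM) and the highest for 2 (Usp10 and Atxn2l). Neuronal markers such as Snap25 and Camk2a were present in every mouse. Hnrnph2 was at no more than 24.4 TPM in the KO mice and at least 80.5 TPM in every other mouse, a log2 change of -2.30 (SE 0.17, adjusted p = 8.64e-06 by limma over all genes) in the KO comparison, so it matched the labels.

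In the GENCODE M21 annotation of GRCm38, G3bp2 is at chr5:92052146-92083719, Ubap2l at chr3:90000140-90052628 and Caprin1 at chr2:103762941-103797649, all protein-coding and on the minus strand. Usp10 overlaps Gm20388 on the same strand, so its values are uncertain by the reads that these share, and Ubap2l overlaps 4933434E20Rik and Atxn2 overlaps Sh2b3 on the opposite strand. All 10 genes were well expressed and passed the filter on low values, a mean of at least 1 TPM, and none was below 10.6 TPM in any mouse. By mean TPM over the 17 mice, which is scaled by transcript length and so can be set between genes, the order was Caprin1 (141 ± 29.6 TPM, SD, n = 17), G3bp2 (132 ± 29.3), Atxn2 (115 ± 27.5), Pabpc1 (114 ± 11.1), Tia1 (102 ± 10.7), Tial1 (75.9 ± 6.65), Atxn2l (73.8 ± 11.1), Ubap2l (61.8 ± 17.4), Usp10 (40.7 ± 6.58) and G3bp1 (16.7 ± 3.11). G3bp1, the member most used as a marker of the granules, was the lowest of the 10 in all 17 mice. Neighbours in the middle of the order were not separated: Atxn2 was above Pabpc1 in 8 of 17 mice and Tial1 was above Atxn2l in 9 of 17. Tia1 was above Tial1, and Usp10 above G3bp1, in 17 of 17.

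**Figure D1:**
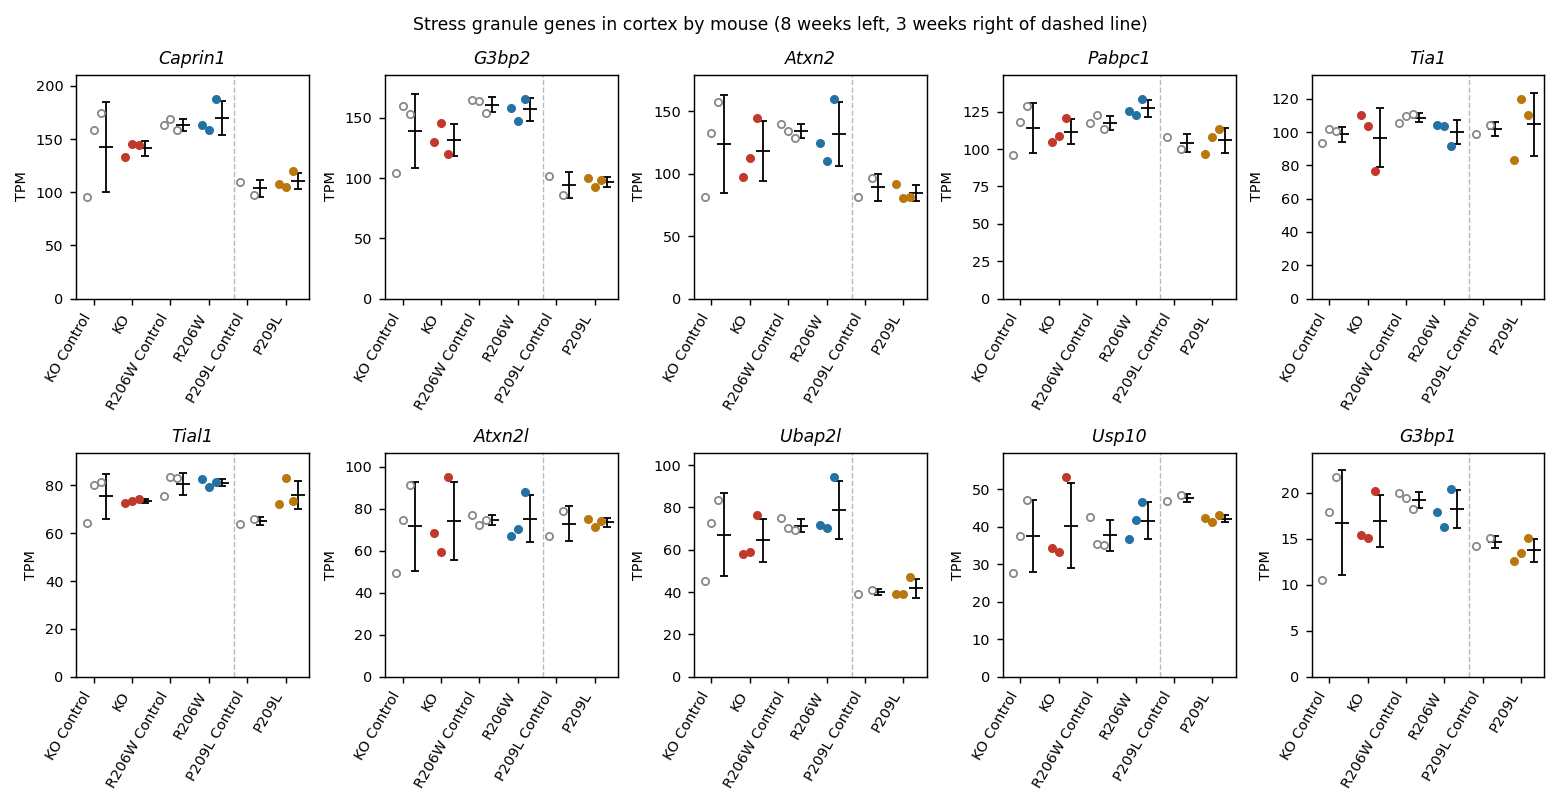
TPM of each gene (vertical axes, from 0) in each mouse, by group (horizontal axes), with wild-type mice as open circles, mutants as filled circles and the mean ± SD beside them; groups right of the dashed line were 3 weeks old. G3bp2, Caprin1, Atxn2 and Ubap2l sit lower at 3 weeks, and KO Control 1 is the low open circle of the first group.

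Loss of Hnrnph2 was not accompanied by a change of any of the 10 genes that passed the test. G3bp2 was at 130, 145 and 120 TPM in KO mice and at 104, 160 and 153 TPM in their controls. Caprin1 was at 133, 146 and 144 TPM against 95.01, 158 and 175 TPM. Ubap2l was at 58.2, 58.8 and 76.4 TPM against 45.4, 72.5 and 83.4 TPM. In each case KO Control 1 was the lowest value and KO Control 2 or KO Control 3 the highest, so that the groups overlapped. By limma on log2(TPM + 1), with all 6 groups in the fit, 0 of 10 genes passed an adjusted p of 0.05 over the 16265 genes tested, of which 0.00615% passed, and 0 had an unadjusted p under 0.05 (4.08% of all genes did). The log2 changes of the 10 genes lay between -0.06 (G3bp2) and 0.10 (Usp10), with a median of -0.024 against 0.064 for all genes. Their 95% intervals reached at most 0.49 in size (Usp10), so larger changes were outside these intervals, which hold KO Control 1. The groups overlapped for 10 of 10 genes (6.25% of all genes did not overlap).

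The KO comparison moved in either direction with the control mouse left out. Without KO Control 1, 10 of 10 genes had a log2 change below 0, from -0.31 (Atxn2) to -0.082 (Tia1), and the median was -0.20 against -0.059 for all genes. G3bp2 then had a log2 change of -0.25 and Caprin1 of -0.24. None of the 10 genes passed, and the smallest adjusted p was 0.418 (G3bp2, limma). Without KO Control 3 the log2 changes were instead 0.27 for Usp10, 0.26 for G3bp1, 0.26 for Atxn2l and 0.20 for Caprin1. They were 0.17 for Atxn2, 0.15 for Ubap2l, 0.065 for Pabpc1 and 0.031 for Tial1. The values of G3bp2 and Tia1 without KO Control 3 are not given here. With samples weighted by their agreement with the rest, the count passing was 0 or 3 depending on the algorithm. The default algorithm of arrayWeights, which had been chosen first, stopped before it converged and gave 0. Its gene-by-gene algorithm, substituted after that output had been seen, gave 3 genes lower (G3bp2, Ubap2l and Atxn2) among 2138 genes called, with a weight of 0.0819 for KO Control 1 against 4.01 for KO Control 2.

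**Figure D2:**
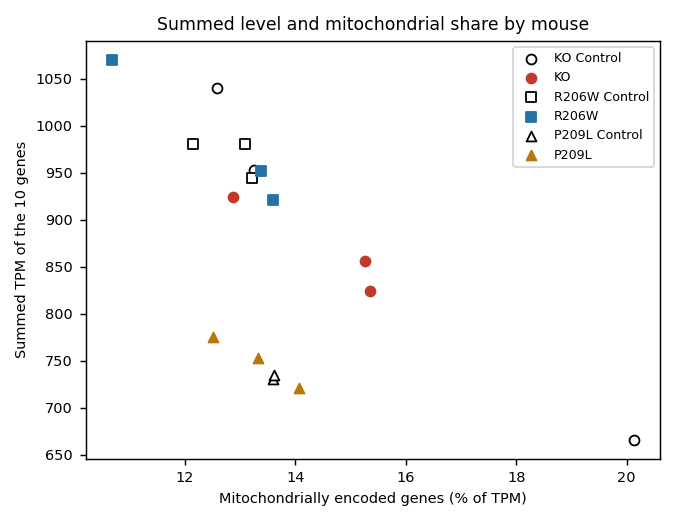
Summed TPM of the 10 genes (vertical axis) against the percentage of TPM in mitochondrially encoded genes (horizontal axis), a point per mouse, with shapes for lines and open symbols for controls. KO Control 1 lies alone at 20.1% and 666 TPM.

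In R206W mice, 0 of 10 genes passed the test (0.0369% of all genes did), and 0 had an unadjusted p under 0.05 (2.19% of all genes). The log2 changes lay between -0.12 (Tia1) and 0.14 (Usp10), with a median of 0.0047 against 0.0096 for all genes. Pabpc1, which coats poly(A) tails, was at 126, 123 and 134 TPM in R206W mice and at 117, 123 and 113 TPM in controls. Its lowest mutant value lay just above its highest control value, with a log2 change of 0.11 (SE 0.11, 95% interval -0.12 to 0.35, adjusted p = 1.0 by limma). Tia1, an RNA-binding protein that represses translation, was at 104, 104 and 91.5 TPM against 106, 110 and 111 TPM, all 3 mutants below the controls, with a log2 change of -0.12 (SE 0.14, 95% interval -0.42 to 0.18). These were the 2 of 10 genes whose groups did not overlap, and 16.2% of all genes did not overlap. R206W 3, which had the lowest mitochondrial share of all mice (10.7%), was the highest of all mice for 5 of the genes. Without it the log2 change was -0.063 for Tia1, 0.076 for Pabpc1 and 0.058 for Usp10, the median of the 10 was -0.043 against -0.023 for all genes, and 0 genes passed.

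In P209L mice at 3 weeks, 0 of 10 genes passed the test (0.0984% of all genes did), and 0 had an unadjusted p under 0.05 (7.46% of all genes). Tial1, the paralog of Tia1, was at 72.1, 82.9 and 73.4 TPM in P209L mice and at 63.9 and 66.1 TPM in controls. All mutants were above both controls, with a log2 change of 0.22 (SE 0.11, 95% interval -0.017 to 0.46, adjusted p = 0.714 by limma). Usp10, the deubiquitinase, was at 42.2, 41.1 and 43.1 TPM against 46.8 and 48.3 TPM, all mutants below both controls, with a log2 change of -0.17 (SE 0.21, 95% interval -0.61 to 0.27). The groups did not overlap for these 2 of 10 genes and for 24.9% of all genes. The other 8 changes lay between -0.092 (G3bp1) and 0.094 (Caprin1), and the median of the 10 was 0.026 against 0.016 for all genes. Oligodendrocyte markers summed to 4118 to 6163 TPM in the P209L controls and to 2496 to 3580 TPM in the mutants. Without P209L Control 2, the mouse with choroid plexus markers, the log2 change of Tial1 was 0.25 and that of Usp10 was -0.15, and without P209L Control 1 they were 0.20 and -0.19. What the markers contributed to these values was not tested.

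The effects of the lines were then set against each other in the same fit. Of the 10 genes, 0 passed in the KO effect minus the R206W effect (0.0307% of all genes passed), 0 in the P209L effect minus the R206W effect (0% passed) and 0 in the KO effect minus the P209L effect (0.0492% passed). At an unadjusted p under 0.05 there were also 0 of 10 in each, against 2.29%, 3.98% and 7.98% of all genes. The widest differences were for Usp10, -0.31 on the log2 scale between the P209L and R206W effects (95% interval -0.90 to 0.28), and 0.27 between the KO and P209L effects (95% interval -0.32 to 0.86). Tial1 differed by -0.25 between the KO and P209L effects (95% interval -0.57 to 0.070). Without KO Control 1, 0 genes passed in either difference with the KO effect. The median of the 10 then moved from -0.023 to -0.23 in the KO effect minus the R206W effect and from -0.057 to -0.21 in the KO effect minus the P209L effect, where the medians of all genes were -0.066 and -0.073. At an unadjusted p under 0.05 there were then 1 and 3 of 10, against 6.96% and 13.3% of all genes. The difference of Usp10 between the KO and P209L effects was then 0.072 and that of Tial1 was -0.36. Between both groups of 8-week controls, 0 of 10 genes passed by limma (0% of all genes did), 0 had an unadjusted p under 0.05 (3.12% of all genes), and all 10 changes were above 0, from 0.033 to 0.24, when R206W Control was set against KO Control. Their median was 0.14 against 0.13 for all genes, and without KO Control 1 it was -0.053. Tia1 was the 1 gene whose values did not overlap between these controls (9.07% of all genes did not).

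**Figure D3:**
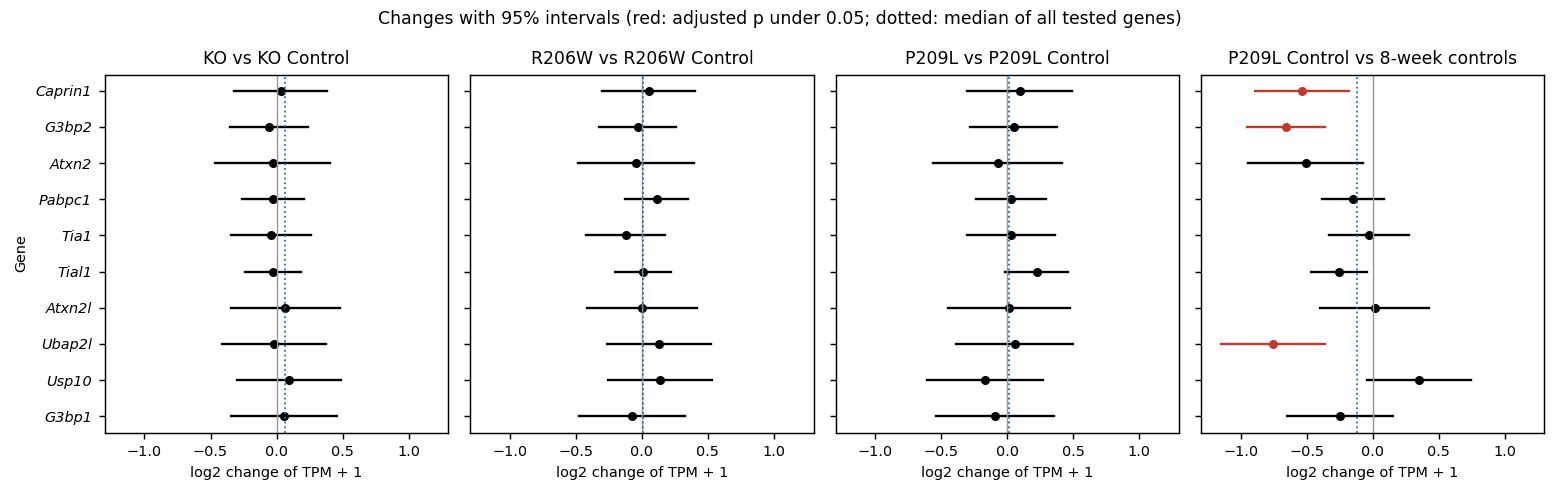
Log2 change of TPM + 1 (horizontal axes) for each gene (vertical axis) in 4 comparisons, with 95% intervals from limma; red marks an adjusted p under 0.05 and the dotted line the median of all tested genes. The intervals of the first 3 panels all cross 0, and G3bp2, Caprin1 and Ubap2l lie to the left in the last.

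In the fit of all 6 groups, the largest log2 changes of the stress granule genes were between control mice of 3 and 8 weeks. In that comparison 36.1% of all genes passed by limma, and the share of the stress granule genes that passed was no higher. P209L Control mice (3 weeks, n = 2) were compared with the mean of KO Control and R206W Control mice (8 weeks, n = 6), all wild type, and line and age cannot be told apart in this comparison. G3bp2 was at 102 and 86.2 TPM at 3 weeks, against 104, 160 and 153 TPM in the KO controls and 165, 164 and 154 TPM in the R206W controls. Both young mice were below all 6 older ones, and KO Control 1 was the nearest of these. The log2 change was -0.66 (SE 0.14, 95% interval -0.95 to -0.36, adjusted p = 0.00228 by limma). Ubap2l, which promotes granule assembly, was at 38.9 and 41.1 TPM, against 45.4, 72.5 and 83.4 TPM and 74.9, 70.2 and 69.3 TPM. It was also lower in both young mice than in any older one, with a log2 change of -0.75 (SE 0.19, 95% interval -1.15 to -0.36, adjusted p = 0.00577).

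Caprin1, the partner of G3BP, was at 109 and 97.7 TPM at 3 weeks, against 95.01, 158 and 175 TPM and 163, 169 and 158 TPM. The young mice were below 5 of the 6 older ones and above KO Control 1, with a log2 change of -0.53 (SE 0.17, 95% interval -0.89 to -0.18, adjusted p = 0.0211 by limma). Thus 3 of 10 genes were lower and 0 higher, against 24.8% and 11.3% of all genes, and 36.1% in either direction. At an unadjusted p under 0.05 there were 5 of 10, against 46% of all genes. The share of the 10 genes that passed is near that background. The groups did not overlap for 2 of 10 genes, G3bp2 and Ubap2l, against 38.2% of all genes. The median log2 change of the 10 was -0.25, and that of all genes was -0.12.

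The other 7 genes did not pass on the TPM scale. Atxn2 was at 81.1 and 96.7 TPM at 3 weeks, against 80.8, 132 and 158 TPM and 139, 134 and 128 TPM, a log2 change of -0.51 (SE 0.21, adjusted p = 0.0655 by limma). Its paralog Atxn2l was at 67.3 and 78.8 TPM against 49.3, 74.5 and 91.5 TPM and 77.3, 72.4 and 74.5 TPM, a log2 change of 0.014 (SE 0.19). Usp10 was at 46.8 and 48.3 TPM against 27.7, 37.6 and 47.2 TPM and 42.5, 35.3 and 35.2 TPM, a log2 change of 0.35 (SE 0.18, adjusted p = 0.150). Usp10 was thus the gene with the most positive difference while its competitor Caprin1 was lower. G3bp1 and Tial1 had log2 changes of -0.25 each (adjusted p = 0.324 and 0.0602), Pabpc1 of -0.15 and Tia1 of -0.027.

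The number of genes that passed with age moved with the libraries used. Without KO Control 1 it was 7, all lower (G3bp1, G3bp2, Caprin1, Ubap2l, Tial1, Pabpc1 and Atxn2), in a fit where 50.3% of all genes passed and 37.4% were lower. The log2 changes were then -0.75 for G3bp2, -0.88 for Ubap2l, -0.67 for Caprin1, -0.65 for Atxn2, -0.39 for G3bp1, -0.31 for Tial1, -0.21 for Pabpc1 and 0.25 for Usp10. In a fit on the compared groups alone Caprin1 did not pass (adjusted p = 0.0952 by limma). Without P209L Control 1 the count was 1 (G3bp2), and without P209L Control 2 it was 1 (Ubap2l), in fits where the remaining young mouse is assumed to vary like the other groups and where 18.3% and 16.7% of all genes passed. The scaling mattered too. With median-of-ratios size factors or quantile normalization the median log2 change of all genes moved from -0.12 to -0.022 or 0.0082, and the genes lower and higher were 23.9% and 19.9% or 21.9% and 22.5%. G3bp2, Ubap2l and Caprin1 passed as lower under both, and Usp10 passed as higher, at 0.46 (adjusted p = 0.0180) and 0.49 (adjusted p = 0.00811, limma). Neuronal markers summed to 3582 to 3730 TPM in the P209L controls, to 3923 TPM in KO Control 1 and to 6241 to 6846 TPM in the other 8-week controls, and 4 of 7 were lower (median log2 change -0.58). Of the other marker lists, 5 of 7 oligodendrocyte, 1 of 4 skeletal muscle and 1 of 3 choroid plexus markers tested were higher, 2 of 6 astrocyte markers were lower, and microglial markers had 1 higher and 3 lower of 6. Endothelial markers had 1 higher and 1 lower of 5, and 0 of 6 leptomeningeal fibroblast and 0 of 5 striatal markers passed. In bulk tissue, fewer cells of a type and less RNA per cell cannot be told apart, and the part of these cell types in the result was not tested.

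A comparison added after the values had been seen set all 5 mice of 3 weeks, mutants included, against all 12 of 8 weeks. Line and age cannot be told apart in it either. In it 4 of 10 genes were lower and 0 higher (39.4% and 18.4% of all genes, 57.7% in either direction). G3bp2 ranged from 86.2 to 102 TPM, with a median of 98.7, at 3 weeks and from 104 to 166 TPM, with a median of 154, at 8 weeks, with no overlap. Its log2 change was -0.61 (SE 0.092, adjusted p = 5.61e-05 by limma). Ubap2l, Caprin1 and Atxn2 changed by -0.75, -0.51 and -0.52. G3bp2 was the 1 of 10 genes without overlap, against 16.7% of all genes.

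Paralogs were compared within a mouse as the share of one in the summed TPM of both, which does not depend on the scaling of the library. Atxn2 made up 54.7% and 55.1% of Atxn2 + Atxn2l in the P209L controls. In the KO controls it made up 62.1%, 63.9% and 63.3%, and in the R206W controls 64.3%, 65.0% and 63.3%. KO Control 1 was the lowest of the 6 controls of 8 weeks, and both young mice lay below it. The mean was 54.9% ± 0.317 (SD, n = 2) at 3 weeks and 63.7% ± 1.00 (n = 6) at 8 weeks, with an exact two-sided permutation p = 0.0357, the smallest this design allows, and 0.306 after adjustment over 20 tests. The difference was -9.09 percentage points without KO Control 1 (exact permutation p = 0.0476, again the smallest possible). Over all mice, in the comparison added later, the share ran from 52.2% to 55.1% in 5 young mice and from 58.7% to 65.5% in 12 older ones, with no overlap (exact permutation p = 0.000162, the smallest that 6188 splits can give, and 0.000808 adjusted over 5 tests).

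Tia1 made up 60.7% and 61.3% of Tia1 + Tial1 in the P209L controls and 55.2% to 59.2% in the 8-week controls (exact permutation p = 0.0357, adjusted 0.306). Over all mice the ranges overlapped (53.7% to 61.3% against 50.7% to 60.2%, exact permutation p = 0.109). G3bp1 made up 12.3% and 14.9% of G3bp1 + G3bp2 in the P209L controls and 9.22% to 12.4% in the 8-week controls (exact permutation p = 0.0714, adjusted 0.306). Over all mice its mean was 12.9% ± 1.37 (SD) at 3 weeks and 10.8% ± 1.40 at 8 weeks (exact permutation p = 0.0118, adjusted 0.0197). Pabpc1 made up 84.0% and 85.9% of Pabpc1 + Pabpc4 against 85.3% to 86.8% (exact permutation p = 0.0714). Within the lines, the smallest p of any share or of the summed level was 0.1, which is the smallest that 3 mice against 3 or 2 allow, and none passed after adjustment. It was reached in R206W by the Tia1 share, 55.2% ± 1.92 (SD, n = 3) against 57.4% ± 0.841, and by the Pabpc1 share, 87.2% ± 0.335 against 86.3% ± 0.292.

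**Figure D4:**
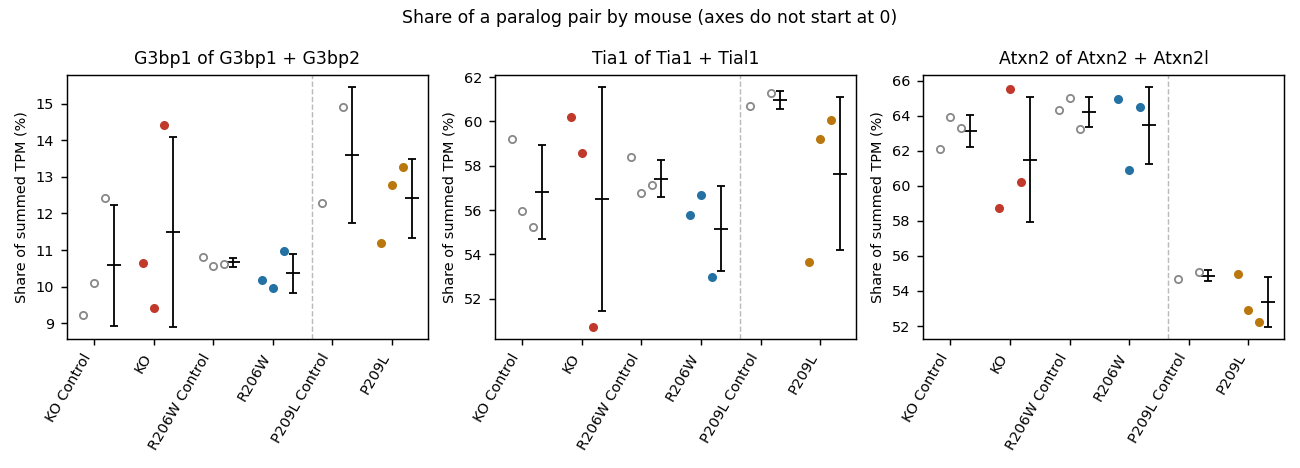
Share of a paralog in the summed TPM of its pair (vertical axes, percent, not from 0) in each mouse by group (horizontal axes), with mean ± SD; open circles are wild-type mice and groups right of the dashed line were 3 weeks old. The Atxn2 share of the 5 young mice lies between 52.2% and 55.1%, below all 12 older mice.

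Other genes of the pathway were taken from 5 lists: 4 tested of 8 paralogs of the members, 30 further stress granule components, 12 partners of the poly(A)-binding protein, 23 initiation factors and members of the eIF2alpha pathway, and 12 components of P-bodies, the granules of mRNA decay. In the KO and R206W comparisons 0 genes of any list passed in the fit reported. In the P209L comparison 1 gene passed, Paip2b, which encodes an inhibitor of the poly(A)-binding protein. It had a log2 change of 0.85 (SE 0.13, adjusted p = 0.0188 by limma), and the groups did not overlap. It did not pass without P209L Control 2, P209L 2 or P209L 3, in a fit on P209L and P209L Control mice alone or with the replicate block. In the P209L comparison, 1 of the 30 further components also passed with no filter, size factors, mitochondrial genes removed or either kind of sample weights. With default sample weights, 1 P-body component passed there too. In R206W mice those weights gave 1 further component, 1 partner and 1 P-body component, and gene-by-gene weights gave 1 partner. The shares of all genes in these fits are not given, so these counts cannot be weighed against them. The default sample weights came from the algorithm that stopped before it converged. With gene-by-gene sample weights, 12 of 30 further components, 4 of 23 initiation factors and 3 of 12 P-body components passed in the KO comparison, in a fit where 13.1% of all genes passed.

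With age, 18 of the 30 further components were lower and 1 higher, with a median log2 change of -0.50. The lowest p were those of Nufip2 (-1.14), Mbnl1 (-0.86) and Pum2 (-0.76), which encode RNA-binding proteins, and the higher one was Cirbp (0.82), a cold-inducible RNA-binding protein. Of the P-body components 6 of 12 were lower and 0 higher, led by the decapping enzyme Dcp2 (-1.20), Ago2 (-1.26) and the helicase Ddx6 (-0.64). Of the poly(A)-binding protein partners 5 of 12 were lower, led by Paip1 (-0.97), Tob2 (-0.65) and Eif4g2 (-0.46). Of the initiation factors 4 of 23 were lower, led by Eif2s3x (-0.51), the cap-binding protein Eif4e (-0.57) and Ppp1r15b (-0.52). Among the paralogs Pabpc5 was lower (-0.72). All of these passed an adjusted p of 0.05 by limma, beside 24.8% of all genes lower and 11.3% higher. The counts moved with the libraries and with the calls over all genes. Without KO Control 1, when 50.3% of all genes passed, 8 of the poly(A)-binding protein partners and 8 of the initiation factors were lower. With either P209L control left out, when 18.3% or 16.7% passed, 12 of the further components and 2 of the partners passed, and without P209L Control 2, 0 of the initiation factors did. In a fit on the compared groups alone (26.6% of all genes), 2 of the partners and 2 of the initiation factors passed. With size factors or quantile normalization the initiation factors had 5 higher beside 3 or 4 lower, so a single direction of that list held on the TPM scale and not under these scalings.

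The 10 genes moved together among mice to differing degrees. Over the 12 mice of 8 weeks, the correlation of log2(TPM + 1) between pairs of the genes had a median r of 0.78 and was above 0 in 39 of 45 pairs. Without KO Control 1 the median was 0.60, with 35 of 45 pairs above 0. Tia1 stood out in direction, with an r below 0 with 7 of the other 9 genes, down to -0.81, over these 11 mice. The points share library composition, and these values are descriptions.

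For each gene, the non-member whose log2(TPM + 1) was most like it over the 17 mice was found among all tested genes. It was Tgoln1 for G3bp2 (r = 0.992), Dip2c for Caprin1 (0.993), Arid1b for Ubap2l (0.992), Icmt for G3bp1 (0.987), Capn15 for Atxn2l (0.983), Pygo2 for Atxn2 (0.972), Vps26b for Pabpc1 (0.963), Rrbp1 for Usp10 (0.941), Lurap1l for Tial1 (0.911) and Nt5dc1 for Tia1 (0.849). Over the 11 mice of 8 weeks without KO Control 1, these r lay between 0.818 (Tia1) and 0.981 (Caprin1). Each was the highest of all tested non-members and carries no test.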

How the data were processed

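The authors deposited TPM values by gene symbol, with a column for each of 17 mice. Per the labels, cortex RNA went into a stranded total RNA library, and the submitters' processing notes name Trim Galore, STAR 2.7.1a, GATK 4.0.4.0, RSEM and mm10, with no order. TPM keeps no depth, so depth per sample and counting error are unknown. Entries sharing a symbol were added up, and the 16265 genes averaging 1 TPM or more were tested as log2(TPM + 1), a scale that understates changes of low genes. Group means were estimated by limma 3.58.1 under R 4.3.3 (eBayes with trend=TRUE, two-sided), sharing the spread over 6 groups, with Benjamini-Hochberg adjustment at 0.05. Paralog shares were tested by exact two-sided permutation (scipy 1.17.1). The fit was checked on simulated data with independent normal values and a spread per gene shared by all groups. No simulated library lay apart as KO Control 1 did, so the check does not cover that case.

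The genes and lists were chosen with earlier results of these data known. Named beside the 10 genes were Hnrnph2, list genes that passed (at most 5 per list in a mutant comparison and 3 per direction with age, smallest p first) and the most correlated gene of each. The marker lists were neuronal, oligodendrocyte, astrocyte, microglial, endothelial, leptomeningeal fibroblast, skeletal muscle, choroid plexus and striatal. Replicate numbers were not treated as pairs in the fit reported. Of 8 same-numbered pairs, 2 had deviations from the group means correlated above 0.1, up to 0.331. Deviations within groups of 2 or 3 mice are tied to each other, so this cannot exclude pairing. Gene positions came from GENCODE M21, which held 98.3% of the symbols.

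Alternatives were a pseudocount of 0.1, no filter or one at 5 TPM, size factors by median of ratios, TPM without mitochondrial genes, quantile normalization, sample weights, own groups alone, a replicate block and each mouse left out. A fit with gene-by-gene sample weights and one with all mice for age were added after the data had been seen.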

Additional observations from a re-analysis of the deposited data

Results flagged for a closer look

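In the 6 wild-type mice of 8 weeks, KO Control 1 lay apart as the lowest value, by Dixon's ratio of the gap to the nearest mouse over the whole range. The ratio was above its 95% critical value at 0.662 for G3bp1, 0.816 for G3bp2, 0.790 for Caprin1, 0.628 for Ubap2l and 0.744 for the summed TPM of the 10 genes. These are 5 of 15 measures examined in the same mice, and chance alone passes this limit in about 1 in 20 groups. The measures are not independent, since they come from the same mice and the sum contains the genes. KO Control 1 also had the highest mitochondrial share, and what that share contributed was not tested. The paralog shares did not pass this limit.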

How the results depend on the processing

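In KO, R206W and P209L mice against their controls, 0 of the 10 genes passed in the fit reported and under every setting first chosen, each mouse left out included. The exception was a setting added later. The arrayWeights fit first chosen warned that it had stopped before convergence, with weights from 2.44e-14 to 138, and gave 0 genes in the KO comparison. Its gene-by-gene algorithm was put in after that output had been seen, and gave 3 in the KO comparison, beside the calls over all genes given above. It also gave 1 (Tial1, adjusted p = 0.0484 by limma) in the KO effect minus the P209L effect. The share of all genes that passed there is not given, so the call of Tial1 cannot be weighed against it. Which algorithm is used therefore decides the KO count, and both are given. With age the count of genes was 3, and it was 5 with mitochondrial genes removed, 7 with sample weights of the default algorithm, 8 with gene-by-gene weights (39.8%, 55.4% and 58.2% of all genes passed in those fits, against 36.1%), and from 1 to 7 with a mouse left out. With all mice, 3-week minus 8-week differences passed for the G3bp1 share (2.11 percentage points, exact permutation p = 0.0118, adjusted 0.0197) and the Atxn2 share (-9.09, p = 0.000162, adjusted 0.000808). The summed level passed as well (-183 TPM, exact permutation p = 0.00226, adjusted 0.00566). That comparison was added after the values had been seen, and line and age cannot be told apart in it. The replicate block left 0 genes passing in each comparison that could be fitted with it. It ended the call of Paip2b in P209L mice and changed no other call of the lists. TPM carries no depth, so no limit from counting can be given, and 2 or 3 mice per group set the precision.

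Of the 80 changes of a gene in a comparison, 58 turned sign under at least 1 alternative. None of the 3 that passed did so (0 cases), and the furthest from 0 among those that turned was 0.27 in size. The cause was not tested. With median-of-ratios size factors the log2 changes that turned sign were, in KO against KO Control, G3bp1 -0.018, Caprin1 -0.051, Atxn2l -0.014, and in R206W against R206W Control, Atxn2l -0.0049. The others were, in P209L Control against the 8-week controls, Tia1 0.086, and in R206W Control against KO Control, Usp10 -0.11, Ubap2l -0.013, Tia1 -0.0074, Tial1 -0.043, Pabpc1 -0.094, Atxn2l -0.045. There were also, in the KO effect minus the R206W effect, Atxn2 -0.060, Atxn2l -0.0094, and in the KO effect minus the P209L effect, Atxn2 -0.045, Atxn2l -0.035. With mitochondrial genes removed the log2 changes that turned sign were, in R206W against R206W Control, Atxn2l -0.0029, and in R206W Control against KO Control, Usp10 -0.0086. With mutant groups included the log2 changes that turned sign were, in P209L Control against the 8-week controls, Tia1 0.029. With quantile normalization the log2 changes that turned sign were, in KO against KO Control, G3bp1 -0.0066, Caprin1 -0.028, and in R206W against R206W Control, Tial1 -0.012, Atxn2l -0.015. Added to these were, in P209L against P209L Control, Tia1 -0.014, Pabpc1 -0.024, Atxn2l -0.017, and in P209L Control against the 8-week controls, Tia1 0.13, Pabpc1 0.018. Others of that setting were, in R206W Control against KO Control, Usp10 -0.11, Tial1 -0.016, Pabpc1 -0.063, Atxn2l -0.021, and in the KO effect minus the R206W effect, Atxn2 -0.024. Also turned were, in the P209L effect minus the R206W effect, Caprin1 -0.013, Atxn2l -0.0020. With the replicate block the log2 changes that turned sign were, in P209L against P209L Control, Ubap2l -0.032, Tia1 -0.019, Pabpc1 -0.023, and in the P209L effect minus the R206W effect, Caprin1 -0.014. Further ones were, in the KO effect minus the P209L effect, Ubap2l 0.0090. With sample weights of the default algorithm the log2 changes that turned sign were, in KO against KO Control, G3bp1 -0.41, Caprin1 -0.33, Usp10 -0.40, Tia1 0.13, Atxn2l -0.36, and in R206W against R206W Control, Caprin1 -0.016, Tial1 -0.0072, Atxn2l -0.070. The others were, in P209L against P209L Control, Atxn2l -0.011, and in P209L Control against the 8-week controls, Atxn2l -0.15. There were also, in R206W Control against KO Control, G3bp1 -0.11, Caprin1 -0.028, Usp10 -0.31, Ubap2l -0.18, Pabpc1 -0.080, Atxn2 -0.18, Atxn2l -0.25, and in the KO effect minus the R206W effect, G3bp1 -0.28, Atxn2 -0.49, Atxn2l -0.29. Added to these were, in the P209L effect minus the R206W effect, G3bp1 0.027, Atxn2 0.020, and in the KO effect minus the P209L effect, G3bp1 -0.31, Usp10 -0.21, Atxn2 -0.51, Atxn2l -0.35. With gene-by-gene sample weights the log2 changes that turned sign were, in KO against KO Control, G3bp1 -0.22, Caprin1 -0.22, Usp10 -0.15, Tia1 0.066, Atxn2l -0.18, and in R206W against R206W Control, Caprin1 -0.011, Tial1 -0.0088, Atxn2l -0.061. Others of that setting were, in P209L against P209L Control, Atxn2l -0.0029, and in P209L Control against the 8-week controls, Atxn2l -0.046. Also turned were, in R206W Control against KO Control, Usp10 -0.075, Ubap2l -0.050, Pabpc1 -0.0026, Atxn2 -0.0080, Atxn2l -0.049, and in the KO effect minus the R206W effect, G3bp1 -0.089, Atxn2 -0.25, Atxn2l -0.11. Further ones were, in the P209L effect minus the R206W effect, G3bp1 0.040, Atxn2 0.031, and in the KO effect minus the P209L effect, G3bp1 -0.13, Atxn2 -0.28, Atxn2l -0.17.

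With a mouse left out, 61 results turned sign in at least 1 case, and their lowest and highest values follow. In the KO effect minus the P209L effect the ranges were Atxn2 -0.23 to 0.24, Atxn2l -0.19 to 0.25, Caprin1 -0.33 to 0.11, G3bp1 -0.13 to 0.36, G3bp2 -0.30 to 0.0095, Pabpc1 -0.17 to 0.040, Tia1 -0.22 to 0.089, Ubap2l -0.33 to 0.10. In the KO effect minus the R206W effect the ranges were Atxn2 -0.26 to 0.22, Atxn2l -0.18 to 0.26, Caprin1 -0.29 to 0.15, G3bp1 -0.15 to 0.34, G3bp2 -0.22 to 0.087, Tia1 -0.021 to 0.24, Tial1 -0.15 to 0.023, Ubap2l -0.41 to 0.027, Usp10 -0.26 to 0.13. In KO against KO Control the ranges were Atxn2 -0.31 to 0.17, Atxn2l -0.18 to 0.26, Caprin1 -0.24 to 0.20, G3bp1 -0.22 to 0.26, G3bp2 -0.25 to 0.053, Pabpc1 -0.15 to 0.065, Tia1 -0.14 to 0.12, Tial1 -0.14 to 0.031, Ubap2l -0.28 to 0.15, Usp10 -0.12 to 0.27. In the P209L effect minus the R206W effect the ranges were Atxn2 -0.15 to 0.12, Atxn2l -0.10 to 0.13, Caprin1 -0.038 to 0.12, G3bp1 -0.090 to 0.066, G3bp2 -0.035 to 0.20, Ubap2l -0.16 to 0.063. In P209L against P209L Control the ranges were Atxn2 -0.20 to 0.054, Atxn2l -0.10 to 0.13, G3bp2 -0.068 to 0.17, Pabpc1 -0.033 to 0.088, Tia1 -0.079 to 0.18, Ubap2l -0.032 to 0.10. In R206W Control against KO Control the ranges were Atxn2 -0.11 to 0.37, Atxn2l -0.14 to 0.30, Caprin1 -0.026 to 0.41, G3bp1 -0.040 to 0.45, Pabpc1 -0.066 to 0.14, Tial1 -0.0044 to 0.16, Ubap2l -0.12 to 0.31, Usp10 -0.16 to 0.21. In R206W against R206W Control the ranges were Atxn2 -0.19 to 0.075, Atxn2l -0.12 to 0.077, Caprin1 -0.024 to 0.10, G3bp2 -0.074 to 0.012, Tial1 -0.039 to 0.034, Ubap2l -0.0084 to 0.20. In P209L Control against the 8-week controls the ranges were Atxn2l -0.11 to 0.13, Tia1 -0.068 to 0.015. For other measures in R206W against R206W Control they were share of Atxn2 in Atxn2 + Atxn2l -1.52 to 0.51 percentage points, summed TPM of the members -32.6 to 42.2 TPM. For other measures in KO against KO Control they were share of G3bp1 in G3bp1 + G3bp2 -0.54 to 1.95 percentage points, share of Tia1 in Tia1 + Tial1 -2.15 to 2.59 percentage points, summed TPM of the members -128.2 to 58.7 TPM. For other measures in P209L against P209L Control they were share of G3bp1 in G3bp1 + G3bp2 -2.51 to 0.13 percentage points.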
